A study of Rattus norvegicus with 12 samples.

Results

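The comparison described here set dorsal root ganglia of rats given paclitaxel against those of rats given vehicle. It took in the 8 libraries whose titles name either treatment, 4 of each, out of 12 in the series. Paclitaxel was injected into the peritoneal cavity at 2.0 mg/kg, from a stock in DMSO that was diluted with saline, in order to produce painful neuropathy. The other 4 libraries came from rats given oxaliplatin at 2.4 mg/kg and share the estimate of spread. The sources used here do not give strain, age, number of injections, sampling time or the content of the vehicle. Nor do the labels say whether each library came from a separate animal. The p-values therefore set group differences against the spread among these libraries only, and that spread may be technical.

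Dorsal root ganglia hold the cell bodies of sensory neurons, each wrapped by satellite glia, together with Schwann cells, fibroblasts, vessels and resident macrophages. They lie outside the blood-nerve barrier, and so drugs in the blood reach them. Paclitaxel binds tubulin and stabilises microtubules, along which neurons carry cargo over the length of the axon, and sensory neuropathy is its best known side effect on nerves. Injured sensory neurons are known to switch on a set of transcription factors and peptides, of which Atf3 and galanin are the classic members.

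Expression is given in CPM, the estimated count of a gene scaled to the size of its library, in the order of libraries 1 to 4. Library totals lay between 17107057 and 17615736 counts, and 17987 to 18181 genes were listed per library. Of 20152 genes listed, 15809 were expressed highly enough to test. Differences are fitted log2 fold changes of paclitaxel over vehicle ± standard error, and a gene is called where its p, adjusted over all genes tested, is under 0.05 in edgeR. Groups are said not to overlap where every library of one lies above every library of the other. A marker of the labelled tissue was present. Prph, a neurofilament-related protein of sensory neurons, was at 1351 to 2086 FPKM (fragments per length of transcript and library size) in the 8 libraries. These are bulk samples, in which fewer cells of a type and less RNA per cell cannot be told apart.

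In this comparison 13 genes rose (0.0822% of those tested) and 6 fell (0.038%). Among the genes that rose were those of secreted products, namely the peptides urocortin and galanin, the receptor ligand Fam150b and the cysteine-rich protein Crisp1. Others encode the endopeptidase Ecel1, the phosphatase Ptprh, the channel adaptor Stac2 and the transcription regulators Atf3 and Ankrd1. Those that fell include the growth factor gene Igf1 and several genes of macrophages, among them Adgre1 and Spi1. Groups without overlap were far more numerous than calls: 613 genes (3.88%) were higher and 487 (3.08%) lower in every paclitaxel library, these counts including the called genes. At an unadjusted p under 0.05 there were 1452 higher (9.18%) and 1245 lower (7.88%).

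Paclitaxel 4 stood apart from the other 3 paclitaxel libraries. When it was left out, 921 genes were called higher (5.77%) and 710 lower (4.45%), and all 19 genes called with it were among them. Paclitaxel 4 had no part in choosing those genes, so it can be read as a separate library, although the vehicle libraries were used on both sides. For the genes called higher, the median log2 difference from the vehicle mean was 0.53, 0.33 and 0.39 in paclitaxel 1, 2 and 3, and 0.01 in paclitaxel 4. For the genes called lower that were tested in both fits, 709 in number, it was -0.62, -0.48 and -0.52, against -0.01 in paclitaxel 4. In other words, the median shift of these genes in 3 libraries had no counterpart in paclitaxel 4. On the first principal component of the 1000 most variable genes (25.3% of their variance), however, paclitaxel 4 lay with its group. Paclitaxel 1 to 4 were at 35.2, 9.4, 5.9 and 8.8 there, and vehicle libraries between -23.6 and -10.9. On the second (16.2%) paclitaxel 4 was at -23.0, paclitaxel 1 to 3 at 5.3, 14.9 and 0.4, and vehicle between -17.1 and 19.7.

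**Figure D1:**
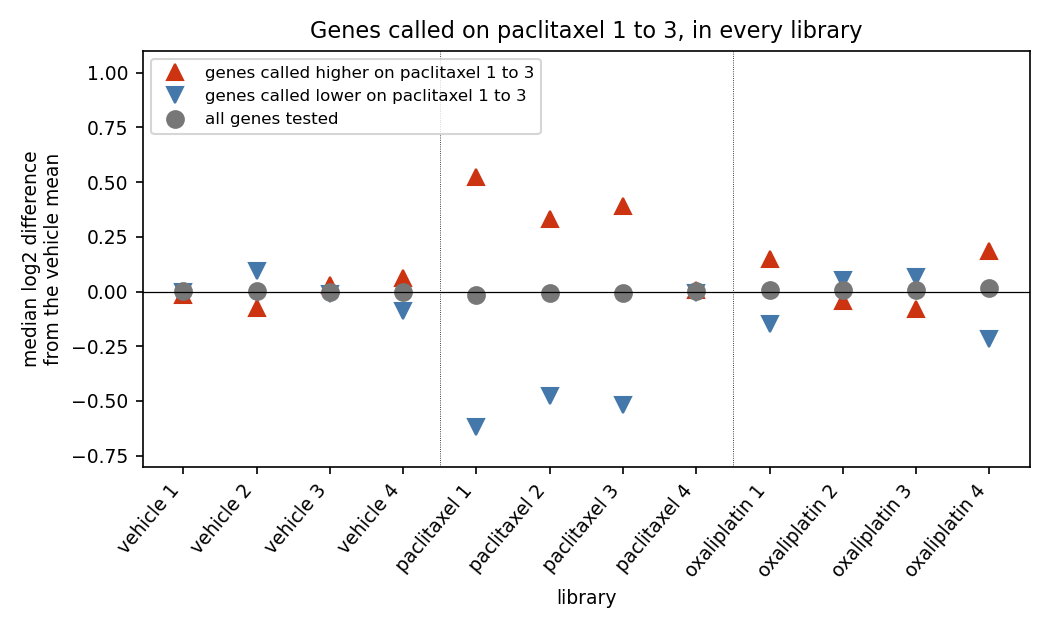
Median log2 difference from the vehicle mean (y axis) in each of the 12 libraries (x axis), for genes called higher or lower on paclitaxel 1 to 3 and for all genes tested. Paclitaxel 1 to 3, which chose the genes, lie at 0.33 to 0.53 and at -0.62 to -0.48, while paclitaxel 4 lies at 0.01 and -0.01 and the oxaliplatin libraries between -0.22 and 0.18.

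Gene by gene, paclitaxel 4 fell within the range of the 4 vehicle libraries for 550 of the 921 higher genes (59.7%) and 447 of the 709 lower genes (63.0%), where 64.5% of all genes tested did so. It lay above all vehicle libraries for 216 of the 921 (23.5%), against 17.6% of all genes, and below them for 147 of the 709 (20.7%), against 18.0%. On the opposite side, it lay below all vehicle libraries for 155 of the 921 (16.8%) and above them for 115 of the 709 (16.2%). The 19 genes called with all 4 libraries behaved otherwise, since paclitaxel 4 lay outside the vehicle range for every one of them. That much is partly fixed by the choice of genes, because a gene with an overlapping library is less likely to be called. Over all genes, the Spearman correlation of paclitaxel 4 was 0.988 to 0.992 with the vehicle libraries and 0.980 to 0.988 with paclitaxel 1 to 3. Values of paclitaxel 4 are therefore named beside the results that follow.

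**Figure D2:**
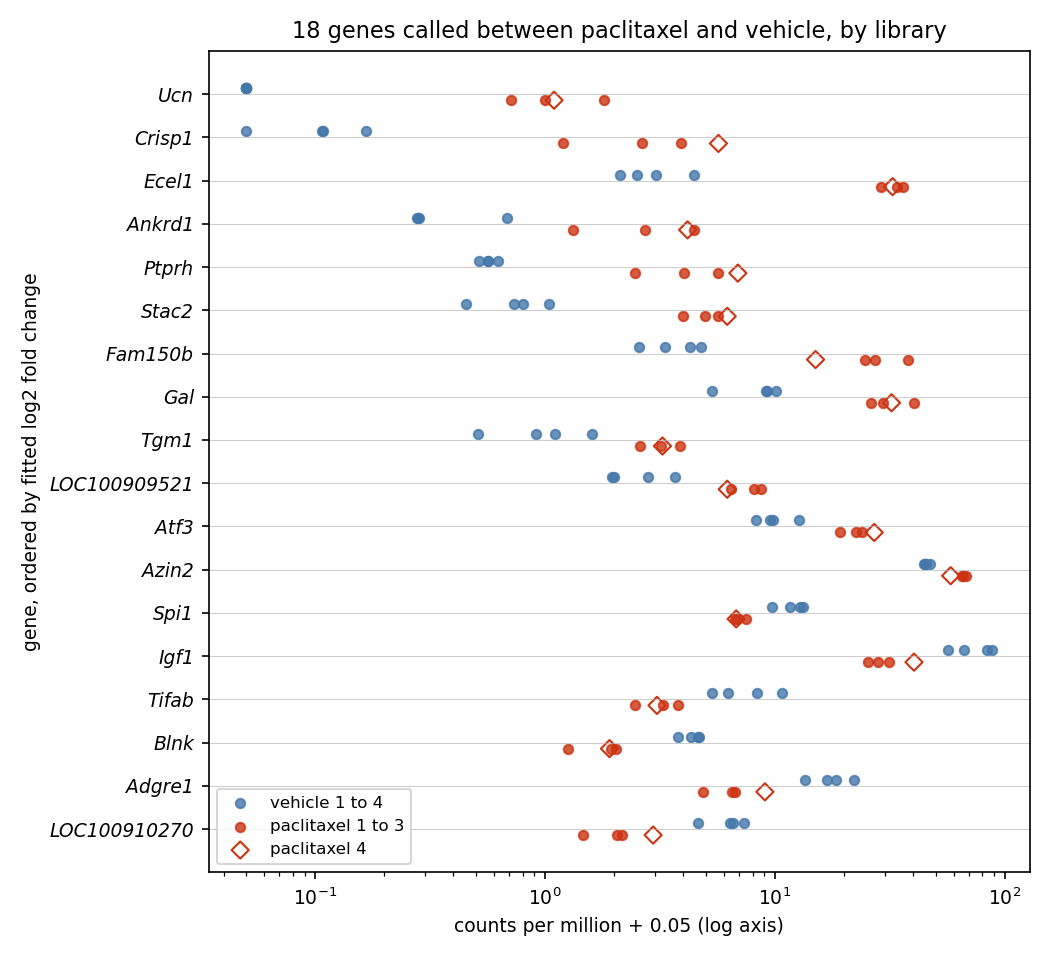
Level of 18 of the 19 called genes in each vehicle and paclitaxel library, in CPM with 0.05 added so that values of 0 can be drawn on the log axis (x axis), with genes ordered by fitted fold change (y axis). In every row the 4 vehicle and 4 paclitaxel points do not overlap, and paclitaxel 4, drawn as an open diamond, lies on the paclitaxel side.

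Secreted signals were among the genes that rose. Gal encodes galanin, a neuropeptide that sensory neurons make in quantity after nerve injury. It was at 5.26, 9.06, 10.1 and 9.18 CPM in the vehicle libraries and at 29.6, 40.2, 26.1 and 32.1 CPM in the paclitaxel libraries. The groups did not overlap and paclitaxel 4 was in the middle of its group, and the log2 fold change of 1.93 ± 0.23 (adjusted p = 0.0024) was 1.93 ± 0.25 without that library. Its receptor genes were near vehicle level, with -0.32 ± 0.21 for Galr1 and 0.21 ± 0.19 for Galr2, the latter with shared reads, neither called (adjusted p = 0.41 and 0.548).

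Ucn encodes urocortin, a peptide of the corticotropin-releasing hormone family. It had 0 counts in all 4 vehicle libraries and 11, 30, 16 and 18 counts after paclitaxel. Against a floor of 3 counts over the vehicle group, that is at least 25.6-fold higher (adjusted p = 0.00761, edgeR), a floor that covers counting error only. Even the highest of these values, 1.76 CPM, is low, and the level per transcript length was 1.13 to 3.11 FPKM. Oxaliplatin libraries had 2, 2, 0 and 2 counts. The receptor genes Crhr1 and Crhr2 had log2 fold changes of 0.30 ± 0.23 and 0.02 ± 0.30 and were not called (adjusted p = 0.464 and 0.975).

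Fam150b, named Alkal2 in RefSeq, encodes a secreted ligand of the receptor tyrosine kinases ALK and LTK. Vehicle libraries had 4.22, 4.73, 3.26 and 2.53 CPM and paclitaxel libraries 27.3, 37.8, 24.6 and 15.0 CPM. Here paclitaxel 4 was the lowest of its group but still above every vehicle library. The log2 fold change was 2.83 ± 0.36 (adjusted p = 0.00753) and 3.02 ± 0.34 without paclitaxel 4. Of the 6 tested genes of ALK and LTK receptors and their ligands, Fam150b was the only one called. The receptor gene Alk was at 46.5 to 54.2 CPM in vehicle and 52.6 to 65.7 CPM in paclitaxel libraries (0.16 ± 0.09, adjusted p = 0.357), with reads shared with other genes. Ltk was under 1 CPM in all 8 libraries, and Ptn, a growth factor also linked to ALK, had -0.36 ± 0.16 (adjusted p = 0.268).

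The 250 bases before the start of these 3 ligand genes are shown, taken from RefSeq on build GRCr8, 5′ to 3′ on the strand of the gene. That of Crisp1, whose product is also secreted, is not shown. The windows are chr1:210084573-210084822 on the minus strand for Gal, chr6:30957836-30958085 on the plus strand for Ucn and chr6:53223132-53223381 on the plus strand for Fam150b. RefSeq windows were matched for 11 of the 19 called genes. Capitals mark TATAAA in Gal and TGACGTCA, the cyclic AMP response element, in Ucn.
Gal: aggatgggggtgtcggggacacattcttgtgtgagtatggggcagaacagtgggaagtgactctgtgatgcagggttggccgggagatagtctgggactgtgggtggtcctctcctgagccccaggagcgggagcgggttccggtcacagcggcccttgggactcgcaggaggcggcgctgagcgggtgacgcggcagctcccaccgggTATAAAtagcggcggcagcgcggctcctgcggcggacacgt
Ucn: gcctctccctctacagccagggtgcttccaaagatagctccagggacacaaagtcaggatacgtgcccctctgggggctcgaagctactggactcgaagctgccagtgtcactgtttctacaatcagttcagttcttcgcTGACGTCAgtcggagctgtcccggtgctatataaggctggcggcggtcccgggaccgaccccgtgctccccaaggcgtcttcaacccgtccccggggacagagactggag
Fam150b: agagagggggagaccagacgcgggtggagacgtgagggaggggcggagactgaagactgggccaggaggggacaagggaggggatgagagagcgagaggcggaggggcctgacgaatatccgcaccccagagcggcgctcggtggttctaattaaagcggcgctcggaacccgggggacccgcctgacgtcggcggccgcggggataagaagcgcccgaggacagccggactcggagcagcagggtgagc

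Motifs were searched as exact letters on both strands. TATAAA lies 41 to 36 bases before the start of Gal and occurs in 13.1% of all 27457 promoter windows. TGACGTCA lies 110 to 103 bases before the start of Ucn and occurs in 1.7% of windows. Fam150b holds GGGCGG 210 to 205 bases before its start, as do 32.4% of windows. Of the other motifs searched, TGACTCA occurs in 3.98% of all windows and TGATGCAA in 0.656%, and neither was in the 11. CCAAT occurs in 34.3% and was in the windows of Ptprh, Crisp1 and Blnk. No 2 of the matches overlap. The windows of Gal, Ucn and Fam150b are rich in G and C (66.0%, 60.4% and 68.4%), against a median of 52.0% for all windows. That of Crisp1 has 44.0%. These are matches of letters, not measured binding.

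Other neuropeptide and granin genes were mostly higher beside Gal and Ucn. In that list of 30 tested genes 21 were higher and 9 lower, and 2 were called. In 8 the paclitaxel libraries lay above all vehicle libraries, where 3.88% of all genes did so. Without paclitaxel 4, 9 of the 30 were called, all higher (30%, against 5.83% of all genes tested). The median log2 fold change was only 0.08, beside -0.01 for all genes tested, so the list is better described by its leading members than by its middle. Vgf, a secreted precursor of several peptides, was at 85.3, 88.9, 112 and 88.2 CPM in vehicle and 251, 188, 186 and 129.8 CPM in paclitaxel libraries. These groups do not overlap, and paclitaxel 4 was the lowest of its 4 (1.01 ± 0.21, adjusted p = 0.132, not called, and 1.15 ± 0.20, adjusted p = 0.0201, without it).

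Calca, the gene of the pain peptide CGRP, was at 1162 to 1415 CPM in vehicle and 1546 to 2009 CPM in paclitaxel libraries. Unlike Vgf, it was almost as high in paclitaxel 4, at 1878 CPM, as in the highest library (0.45 ± 0.11, adjusted p = 0.17). Cck, cholecystokinin (1.46 ± 0.38), Npy, neuropeptide Y (1.33 ± 0.51), Adcyap1, the peptide PACAP (0.51 ± 0.11), and Cpe, a peptide-processing enzyme (0.35 ± 0.09), complete the 8 without overlap. None of these 4 was called (adjusted p between 0.137 and 0.252). Reads of Vgf and Calca were shared with other genes in all 12 libraries, so their values are uncertain.

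Surface and signalling proteins formed a further set of called genes. Ptprh encodes a receptor-type tyrosine phosphatase. Its level was 0.578, 0.468, 0.515 and 0.517 CPM in vehicle and 2.42, 3.99, 5.62 and 6.85 CPM in paclitaxel libraries. The vehicle values are tightly packed, and paclitaxel 4 was the highest of all (3.17 ± 0.34, adjusted p = 0.000994). Stac2 encodes an adaptor protein of voltage-gated calcium channels and went from 0.751, 0.994, 0.687 and 0.402 CPM to 3.93, 5.63, 4.91 and 6.16 CPM. Again paclitaxel 4 was the highest library (2.85 ± 0.30, adjusted p = 0.000994). Both genes are weakly expressed, at mean levels of 1.20 and 1.65 FPKM after paclitaxel and 0.143 and 0.238 FPKM in vehicle.

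Ecel1, Tgm1 and Azin2 encode enzymes or regulators of enzymes. Ecel1, a membrane endopeptidase known from injured neurons, was at 2.08, 2.98, 4.41 and 2.47 CPM in vehicle and 28.9, 36.0, 33.8 and 32.5 CPM in paclitaxel libraries. This was the smallest adjusted p of the comparison (0.000152, log2 fold change 3.45 ± 0.28). Tgm1, a transglutaminase that cross-links proteins, had 0.867, 1.05, 1.54 and 0.459 CPM and 2.54, 3.81, 3.14 and 3.19 CPM (1.69 ± 0.28, adjusted p = 0.0352). Azin2 encodes an antizyme inhibitor, which relieves the brake on polyamine synthesis, and had the smallest fold change of the called genes. It was at 44.6, 47.1, 45.3 and 44.8 CPM in vehicle and 67.7, 64.9, 66.0 and 58.1 CPM in paclitaxel libraries (0.50 ± 0.09, adjusted p = 0.0367). Of 14 tested genes of polyamine metabolism it was the only one called, and Odc1, the rate-limiting enzyme of that pathway, had 0.04 ± 0.08 (adjusted p = 0.796).

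Transcription regulators were represented by Atf3 and Ankrd1. Atf3, a stress-induced transcription factor, was at 8.21, 12.6, 9.73 and 9.47 CPM in vehicle and 19.1, 23.8, 22.6 and 27.0 CPM in paclitaxel libraries, with paclitaxel 4 the highest (1.21 ± 0.15, adjusted p = 0.00323). Its estimated counts were not whole in 11 of 12 libraries, so part of its reads may belong to another gene. Ankrd1, an ankyrin repeat protein induced by stretch and stress in muscle, was at 0.636, 0.234, 0.229 and 0.230 CPM and 1.27, 4.40, 2.66 and 4.12 CPM (3.20 ± 0.44, adjusted p = 0.0076). Paclitaxel 1 was the library nearest to vehicle.

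Crisp1, named Crisp3 in RefSeq, encodes a secreted cysteine-rich protein and was almost silent in vehicle. It had 1, 2, 1 and 0 counts there and 19, 66, 44 and 97 counts after paclitaxel. The ratio of summed CPM was 57.9, with a 95% counting interval of 22.3 to 214 (adjusted p = 0.0024, edgeR). LOC100909521 (1.51 ± 0.22) and LOC100910270 (-1.55 ± 0.23) were called higher and lower, with shared reads in all 12 libraries, and are uncertain.

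In all, 11 genes had 0 counts in every vehicle library and a value above 0 in every paclitaxel library. Only 3 of them reached 10 counts in each paclitaxel library, among them Ucn and LOC108348082. LOC108348082 was given exactly 41.69 estimated counts in all 4 paclitaxel libraries and in oxaliplatin 2 and 3, and 0 elsewhere. It was not called (adjusted p = 0.203). An estimate that is equal in 6 libraries is not a plain read count, and its value is reported only as deposited. In the reverse direction 3 genes were at 0 in every paclitaxel library and above 0 in every vehicle library, and edgeR tested none of them because their counts were too low.

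The genes that fell began with another secreted signal. Igf1 encodes insulin-like growth factor 1, made by many support cells and by macrophages. Vehicle libraries had 66.6, 56.4, 88.3 and 83.9 CPM and paclitaxel libraries 25.3, 28.2, 31.2 and 40.3 CPM. Paclitaxel 4 was the least lowered (-1.24 ± 0.19, adjusted p = 0.0132, and -1.39 ± 0.19 without it). In the insulin-like growth factor axis, 15 genes tested, Igf1 alone was called. Pappa, a protease that frees the factor from its binding proteins, was at 8.96, 7.95, 8.58 and 7.58 CPM in vehicle and 15.7, 21.9, 18.5 and 16.6 CPM in paclitaxel libraries. These groups do not overlap and the direction is opposite to that of Igf1 (1.14 ± 0.24, adjusted p = 0.116, not called). The receptor gene Igf1r, with shared reads, had 0.04 ± 0.12 (adjusted p = 0.864).

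The other 4 called genes of known function that fell are known from macrophages and related blood cells. Spi1, the myeloid transcription factor PU.1, was at 11.6, 13.2, 12.9 and 9.64 CPM in vehicle and 6.77, 7.45, 6.69 and 6.74 CPM in paclitaxel libraries, which were nearly equal to one another (-0.77 ± 0.12, adjusted p = 0.0132). Adgre1, the surface receptor F4/80, was at 18.4, 22.2, 16.9 and 13.4 CPM and 4.84, 6.63, 6.45 and 9.003 CPM (-1.39 ± 0.22, adjusted p = 0.0194). Tifab, a regulator of innate immune signalling, was at 6.18, 10.7, 8.30 and 5.28 CPM and 2.42, 3.75, 3.20 and 3.02 CPM (-1.29 ± 0.22, adjusted p = 0.0349). In each of these 3 genes paclitaxel 4 lay clearly below the vehicle libraries. Blnk, an adaptor of B-cell receptor signalling that macrophages also express, was at 4.28, 4.62, 4.58 and 3.73 CPM and 1.21, 1.99, 1.89 and 1.86 CPM (-1.30 ± 0.22, adjusted p = 0.0367).

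These calls rest unequally on single libraries. Ecel1, Stac2, Ptprh, Crisp1, Gal, Atf3, Fam150b, Ankrd1 and Ucn were called whichever of the 8 libraries was left out. The 6 genes that fell, and also Azin2, Tgm1 and LOC100909521, each missed the threshold without at least 1 of vehicle 1 to 4 or paclitaxel 1 to 3. Without paclitaxel 1, or without paclitaxel 3, edgeR called 0 genes lower, with 726 and 825 at an unadjusted p under 0.05.

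**Figure D3:**
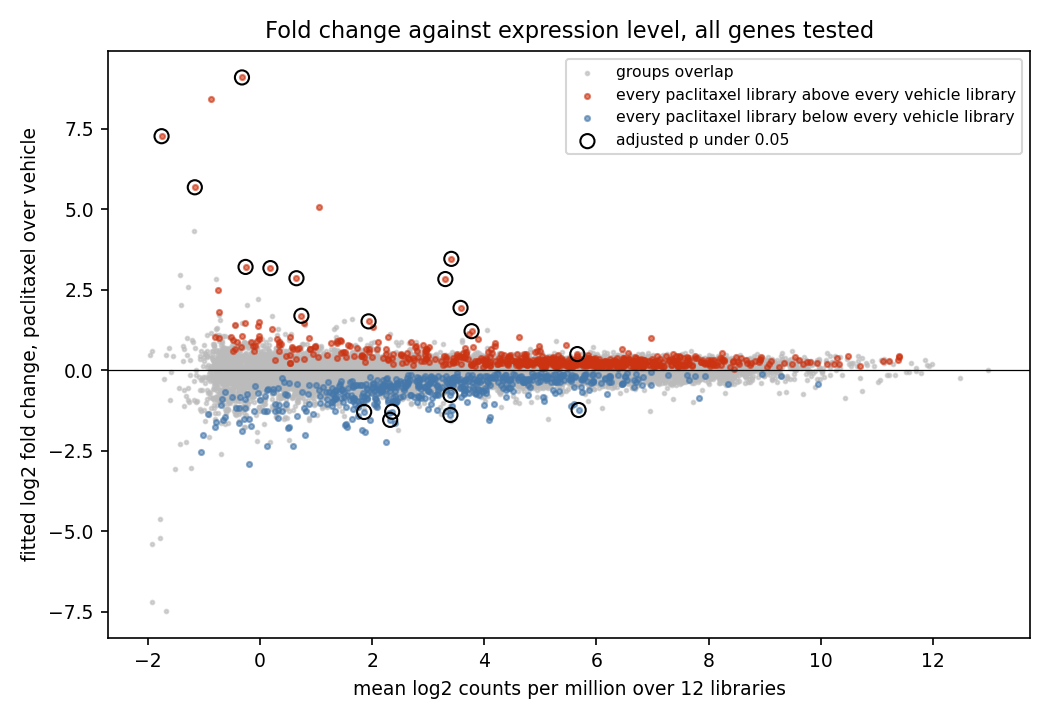
Fitted log2 fold change of paclitaxel over vehicle (y axis) against mean log2 CPM over the 12 libraries (x axis) for the 15809 genes tested, coloured where the 4 paclitaxel libraries lie all above or all below the vehicle libraries, with called genes circled. Fitted values of genes at 0 in vehicle (such as Ucn and LOC108348082, over 7 on this scale) depend on the prior of the fit and are no measure of size.

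Direction and size varied with mean CPM, which is not corrected for gene length. The genes tested were divided into 4 bins of nearly equal size by that mean. In the lowest bin 201 were lower and 99 higher without overlap, and the median log2 fold change was -0.09. In the highest bin the order was reversed, with 241 higher and 42 lower and a median of 0.06. Large changes were mostly in the lowest bin: of 216 genes with a log2 fold change under -1, 188 were there, as were 60 of the 68 above 1. Calls followed the same order, with 11 of 19 from edgeR in the lowest bin and 0 in the highest. Genes with high counts thus differed by small amounts, mostly upward, and genes with low counts by larger amounts, more often downward. The precision of a fold change also varies with the count. Markers of neurons, described below, were higher and those of macrophages lower in the same libraries, and their part in this relation was not tested.

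**Figure D4:**
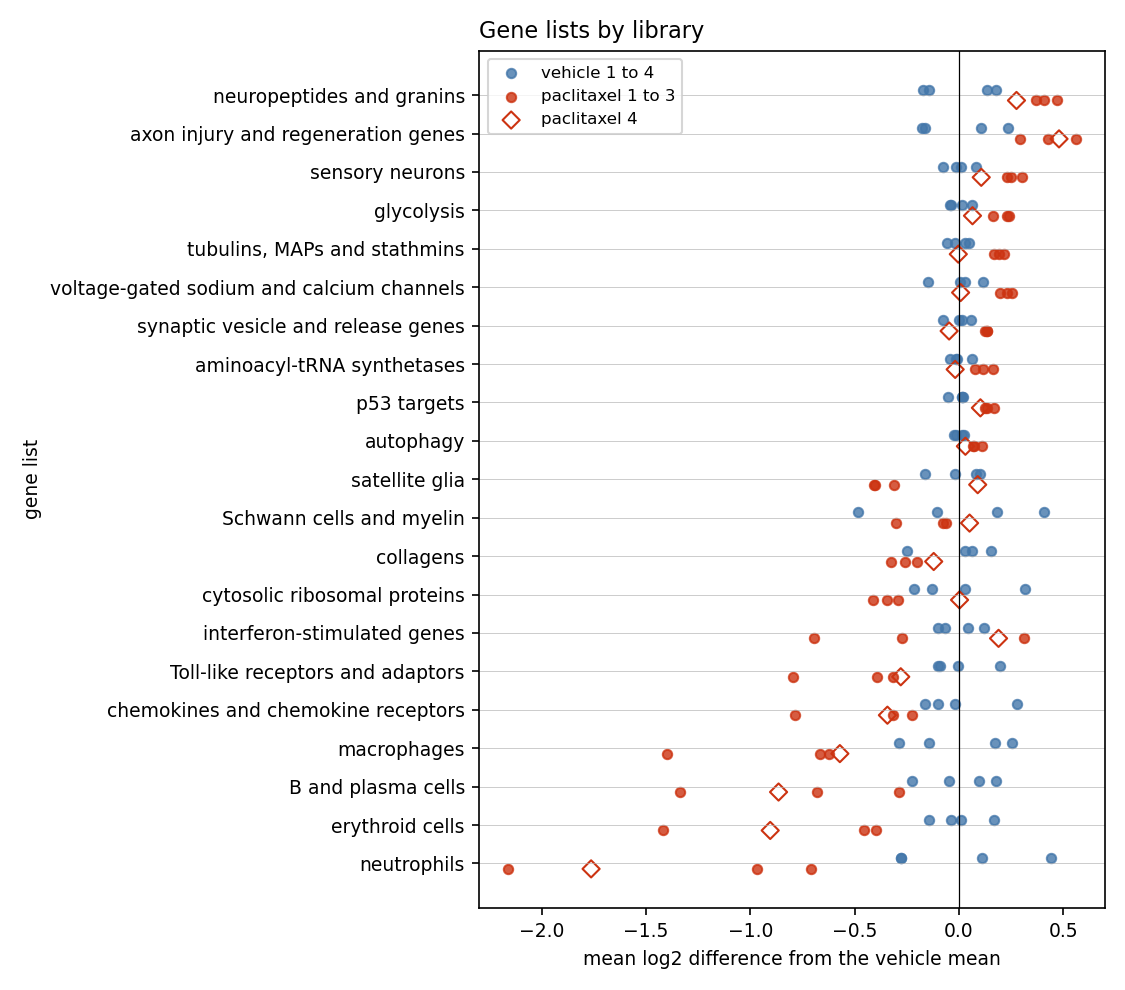
Mean log2 difference from the vehicle mean over the tested genes of each list (x axis), 1 point per library, for 21 gene lists (y axis). Paclitaxel 4, drawn as an open diamond, lies among the vehicle libraries for tubulins, channels, synaptic, synthetase, glial and ribosomal lists, and with the other paclitaxel libraries for macrophages, neutrophils and erythroid cells.

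Energy supply genes did not share a direction. Of 25 tested genes of glycolysis, including glucose and lactate carriers, 22 were higher, with a median of 0.25. With all 4 libraries edgeR called 0, while 8 were higher without overlap, where 3.88% of all genes were, and Hk2 was lower. Without paclitaxel 4, 10 were called higher and 1 lower (40% and 4%, against 5.83% and 4.48% of all genes tested). Pgk1, phosphoglycerate kinase, was at 349.9, 380.0, 352 and 389 CPM in vehicle and 495, 465, 452 and 421 CPM in paclitaxel libraries (0.32 ± 0.09, adjusted p = 0.203). Pkm, pyruvate kinase, was at 945, 971, 1100.3 and 1069.8 CPM and 1599.6, 1373, 1465 and 1049.7 CPM, with paclitaxel 4 inside the vehicle range (0.43 ± 0.13, adjusted p = 0.209). Hk2, the inducible hexokinase, went the other way from Hk1, the hexokinase of neurons. Hk2 was at 6.76, 8.42, 10.2 and 7.69 CPM and 4.41, 5.28, 6.27 and 6.10 CPM (-0.58 ± 0.17, adjusted p = 0.203) and Hk1 at 311 to 339 CPM and 339 to 490.2 CPM (0.39 ± 0.12, adjusted p = 0.209). Reads of Hk2 and Pkm were shared with other genes. Nuclear genes of oxidative phosphorylation were lower in 56 of 89 (median -0.06), where 52.1% of all genes were lower, and edgeR called 0. Their mean difference was -0.01, -0.17, -0.14 and -0.04 in paclitaxel 1 to 4. Of these, paclitaxel 1 and 4 lay within the vehicle range of -0.08 to 0.15. Without overlap 6 were lower and 1 higher, where 3.08% and 3.88% of all genes were. Neuronal markers were higher in the same libraries, with summed levels of 16084 to 19623 CPM against 13632 to 15108 CPM, and their part in the glycolysis result was not tested.

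**Figure D5:**
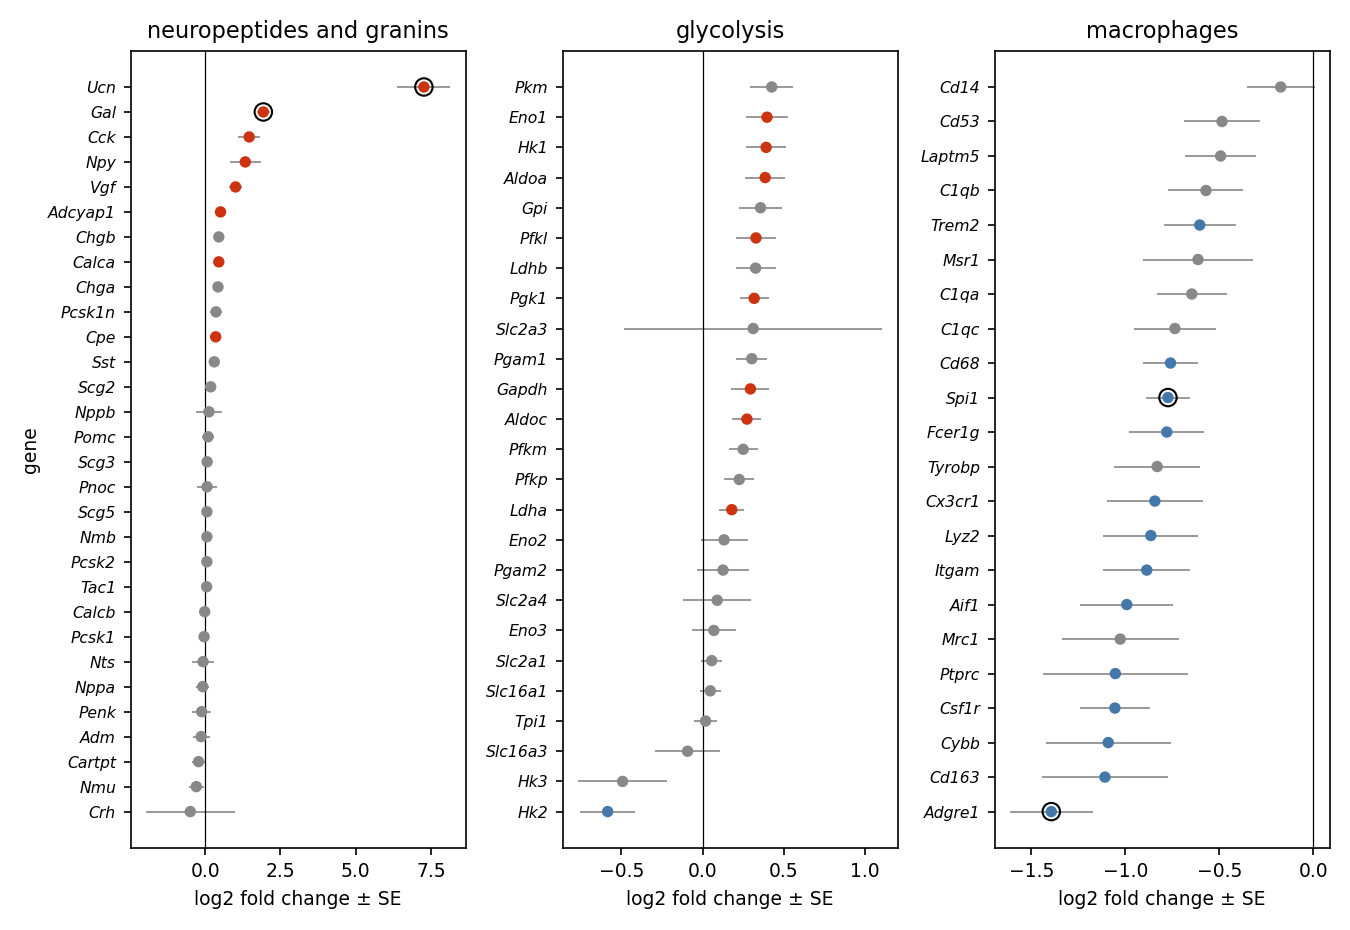
Fitted log2 fold change ± SE of every tested member (y axis) of 3 lists, red where all paclitaxel libraries lay above and blue where all lay below the vehicle libraries, circled where called. Of 30 neuropeptide and granin genes Ucn and Gal were called, of 25 glycolysis genes 0, and of 22 macrophage genes Adgre1 and Spi1.

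Genes of the neuronal cytoskeleton, of sodium and calcium channels and of the synapse were on average higher in paclitaxel 1 to 3 and not in paclitaxel 4. Single members differ from that average. Of 58 tested tubulins, microtubule-associated proteins and stathmins, the proteins on and around the drug's own target, 48 were higher (median 0.18), with 0 called and 4 higher without overlap, where 3.88% of all genes were. Their mean difference from vehicle was 0.22, 0.17 and 0.19 in paclitaxel 1, 2 and 3 and 0.00 in paclitaxel 4, where single vehicle libraries spanned -0.06 to 0.05. Without paclitaxel 4, 17 of the 58 were called higher and 1, Map7d3, lower (29.3% and 1.72%, against 5.83% and 4.48% of all genes tested). Tubb3, the neuronal beta-tubulin, was at 2418, 2559.8, 2666 and 2668 CPM in vehicle and 3914, 3266, 3496 and 2853 CPM in paclitaxel libraries (0.39 ± 0.11, adjusted p = 0.203, and 0.47 ± 0.11, adjusted p = 0.0277, without paclitaxel 4). Stmn4, a stathmin of neurons, was at 19.995, 21.7, 22.0 and 22.0 CPM and 25.1, 27.6, 28.6 and 31.8 CPM. In contrast to Tubb3, whose reads are shared with other genes, it was highest in paclitaxel 4 (0.40 ± 0.10, adjusted p = 0.19).

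Voltage-gated sodium and calcium channel genes were higher in 27 of 35 (median 0.23), 1 without overlap, where 3.88% of all genes were. That gene, Cacna1d, a subunit of L-type calcium channels, was at 17.7, 15.7, 13.6 and 18.4 CPM and 23.9, 24.99, 22.1 and 20.6 CPM (0.49 ± 0.12, adjusted p = 0.169), with shared reads. Scn4b, an accessory subunit of sodium channels, shows how far paclitaxel 4 could differ. It was at 417, 374, 428 and 455 CPM in vehicle and 611, 639.8, 662 and 435 CPM in paclitaxel libraries (0.49 ± 0.12, adjusted p = 0.19, and 0.61 ± 0.09, adjusted p = 0.0115, without paclitaxel 4). Potassium channel genes were divided, with 52 of 86 higher (median 0.11). Without overlap 2 were higher and 4 lower, where 3.88% and 3.08% of all genes were. Their mean difference was 0.04, 0.07 and 0.15 in paclitaxel 1 to 3 and -0.07 in paclitaxel 4. Of these, paclitaxel 1 and 4 lay within the vehicle range of -0.12 to 0.05. Kcnk3, a leak potassium channel, had the smallest p of the list. It was at 8.38, 9.06, 10.4 and 9.36 CPM and 17.5, 22.5, 19.2 and 13.9 CPM, higher without overlap (0.97 ± 0.19, adjusted p = 0.0975).

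Of 60 synaptic vesicle and release genes 42 were higher (median 0.12), 3 without overlap (Sv2a, Vamp2 and Stx1a), a share near the 3.88% of all genes. Without paclitaxel 4, 12 of the 60 were called higher (20%, against 5.83% of all genes). Sv2a was at 82.9, 74.5, 79.1 and 84.4 CPM and 118, 109.8, 107 and 85.1 CPM, so that paclitaxel 4 barely cleared the vehicle libraries (0.39 ± 0.11, adjusted p = 0.203). Sensory neuron markers themselves were higher in 15 of 16 (median 0.28), 5 without overlap, where 3.88% of all genes were, and 0 called. Their mean difference was 0.30, 0.23 and 0.25 in paclitaxel 1 to 3 and 0.11 in paclitaxel 4, above the vehicle range of -0.08 to 0.08. How far the higher level of these neuronal markers bears on the channel, synaptic and tubulin genes was not tested. The lists also share members, such as Tubb3, which is both a marker and a tubulin.

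The injury list, which includes Ecel1, Gal and Atf3, was on average higher in all 4 paclitaxel libraries. Of 26 tested members 19 were higher and 7 lower (median 0.28). Without overlap 9 were higher and 0 lower, where 3.88% and 3.08% of all genes were. Without paclitaxel 4, 8 were called higher and 1, Anxa1, lower (30.8% and 3.85%, against 5.83% and 4.48% of all genes tested). The mean difference was 0.43, 0.29 and 0.56 in paclitaxel 1 to 3 and 0.48 in paclitaxel 4, against -0.17 to 0.23 in vehicle. The large changes of Ecel1, Gal and Atf3 are part of this mean, and a mean without them was not taken. Gap43, a protein of growing axons, was at 242, 318, 280.4 and 314 CPM and 363, 366, 346 and 359.9 CPM (0.31 ± 0.09, adjusted p = 0.203). Gadd45a, a stress gene, was at 24.9, 29.1, 23.5 and 24.2 CPM and 31.4, 29.7, 33.98 and 36.4 CPM (0.37 ± 0.10, adjusted p = 0.199). Cdkn1a, whose protein p21 halts the cell cycle and is induced by p53, was the first by p of the named genes higher without overlap but not called. It was at 14.7, 11.3, 10.1 and 9.30 CPM in vehicle and 26.1, 28.9, 17.2 and 20.6 CPM in paclitaxel libraries (1.03 ± 0.20, adjusted p = 0.0848). Of 28 tested p53 targets 19 were higher (median 0.07). Without overlap 3 were higher and 1 lower, where 3.88% and 3.08% of all genes were.

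Further genes without overlap that missed the threshold came from many pathways. Bdkrb2, the bradykinin receptor of nociceptors, was at 16.9, 14.2, 12.2 and 13.6 CPM and 24.7, 26.8, 30.9 and 18.6 CPM (0.83 ± 0.17, adjusted p = 0.0975). Fbxo9, a ubiquitin ligase subunit, was at 78.1, 76.2, 72.4 and 81.0 CPM and 119.7, 125, 113 and 84.3 CPM (0.52 ± 0.10, adjusted p = 0.0967), again with paclitaxel 4 near vehicle. Sema6a, a transmembrane semaphorin (0.58 ± 0.12), Sdc1, syndecan 1 (0.67 ± 0.15), Aplp1, of the amyloid precursor family (0.42 ± 0.09), and Cttn, the actin regulator cortactin (0.45 ± 0.09), belong here too, with adjusted p between 0.107 and 0.132. Serpina3n, a secreted protease inhibitor, had one of the largest fold changes of the comparison and a wide spread. It was at 0.520, 0.351, 0.916 and 0.287 CPM in vehicle and 3.57, 46.3, 10.8 and 9.64 CPM in paclitaxel libraries (5.06 ± 1.29, adjusted p = 0.203). The groups do not overlap, but paclitaxel 2 was far above the other 3.

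Protein synthesis and turnover gave mixed results. Aminoacyl-tRNA synthetase genes were higher in 24 of 36 (median 0.15), 5 without overlap, where 3.88% of all genes were. Among these 5 was Yars at 92.2, 97.2, 107 and 108 CPM and 146, 129, 129 and 112 CPM (0.35 ± 0.11, adjusted p = 0.216). Rars2, the arginyl enzyme of mitochondria, was lower without overlap (-0.53 ± 0.15, adjusted p = 0.203). Autophagy genes were higher in 19 of 29 (median 0.11), 5 without overlap, beside the same 3.88% of all genes. They were led by Atg16l1, which helps lipidate LC3 on the growing membrane (0.29 ± 0.08, adjusted p = 0.203). Cytosolic ribosomal protein genes were lower in 72 of 74 (median -0.26), but only Rps29 was without overlap. Rpl7 was at 332, 467, 371 and 296 CPM in vehicle and 234.7, 249, 233 and 352 CPM in paclitaxel libraries (-0.46 ± 0.18, adjusted p = 0.252, shared reads). The mean difference of the ribosomal list was -0.29, -0.35 and -0.41 in paclitaxel 1 to 3 and 0.00 in paclitaxel 4, with vehicle libraries from -0.21 to 0.32.

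Among the paclitaxel libraries, some genes were lower in paclitaxel 1 to 3 and not in paclitaxel 4, several genes of nuclear proteins among them. Clk1, a kinase of splicing factors, was at 76.4, 90.8, 82.2 and 79.8 CPM in vehicle and 46.9, 51.4 and 50.5 CPM in paclitaxel 1 to 3, but at 80.8 CPM in paclitaxel 4 (-0.52 ± 0.14, adjusted p = 0.203, and -0.73 ± 0.09, adjusted p = 0.00307, without it). Dnaja1, a co-chaperone of Hsp70, was at 467, 509, 487 and 461 CPM, 338, 335 and 315 CPM and 481 CPM in the same order (-0.39 ± 0.12, adjusted p = 0.209, and -0.55 ± 0.08, adjusted p = 0.0115, without paclitaxel 4). After oxaliplatin Dnaja1 was at 355, 409, 399 and 344 CPM, also below every vehicle library. Smc6, a chromosome maintenance protein, and Prpf4b, a splicing kinase, stood within the vehicle range in paclitaxel 4, as Clk1 and Dnaja1 did. Zfp638, a zinc finger protein, was above that range in paclitaxel 4, at 81.3 CPM against 69.2 to 78.0, and at 44.2 to 47.9 CPM in the other 3. Without paclitaxel 4, 15 of 94 splicing factors and 22 of 262 zinc finger genes of the Zfp series were called lower (15.96% and 8.40%, where 4.48% of all genes tested were). Higher calls numbered 6 and 4 (6.38% and 1.53%), where 5.83% of all genes were. With it, edgeR called 0 in both lists.

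In macrophage, neutrophil and erythroid genes, as in the injury list, paclitaxel 4 lay on the side of its group. All 22 macrophage markers were lower (median -0.81), 2 called and 13 without overlap, where 3.08% of all genes were. Csf1r, the receptor for the survival factor of macrophages, just missed the threshold at 66.5, 78.4, 83.7 and 47.8 CPM in vehicle and 21.4, 34.6, 38.0 and 38.9 CPM in paclitaxel libraries (-1.06 ± 0.19, adjusted p = 0.0513). Cd68, a lysosomal protein of macrophages, was at 5.89, 7.48, 7.55 and 6.37 CPM and 3.27, 4.87, 3.79 and 4.18 CPM (-0.76 ± 0.14, adjusted p = 0.0797). Cd4, which macrophages of the rat carry as well as T cells, was at 40.8, 56.1, 57.7 and 41.0 CPM and 17.7, 23.4, 26.7 and 32.6 CPM (-0.96 ± 0.19, adjusted p = 0.0975), with shared reads. The mean difference of the macrophage list was -1.40, -0.62 and -0.66 in paclitaxel 1 to 3 and -0.57 in paclitaxel 4, all below the vehicle range of -0.29 to 0.26 and lowest in paclitaxel 1. In summed level it was 258 to 503 CPM after paclitaxel and 563 to 938 CPM in vehicle.

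Neutrophil markers had the lowest median of the lists described. All 15 tested were lower (median -1.36), 6 without overlap, where 3.08% of all genes were, and 0 called. S100a9, a calcium-binding protein abundant in neutrophils, was at 17.7, 27.4, 40.4 and 30.8 CPM and 5.56, 16.9, 11.7 and 8.13 CPM (-1.46 ± 0.46, adjusted p = 0.218). Ctsg, the granule protease cathepsin G, was at 1.16, 2.05, 3.60 and 1.78 CPM and 0.0605, 0.235, 0.533 and 0.290 CPM (-2.91 ± 0.73, adjusted p = 0.19). Among erythroid markers 16 of 17 were lower (median -0.85), 4 without overlap, and among B and plasma cell markers 11 of 12 (median -0.88), 1 without overlap. Erythroid markers summed to 1451 to 3266 CPM after paclitaxel and 2666 to 4758 CPM in vehicle, so these sums overlapped between the groups. Among T and natural killer cell markers Cd5 was at 0 in all 8 libraries. The part of blood in the lower macrophage and neutrophil genes was not tested.

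Receptors and signals of innate immunity were lower with these markers, and many are themselves expressed by macrophages. Toll-like receptors and adaptors were lower in 21 of 24 (median -0.42), 4 without overlap, and chemokines and their receptors in 21 of 28 (median -0.44), 5 without overlap. Fc receptors, lectins and Siglecs were lower in 39 of 48 (median -0.39), 8 without overlap, with 0 called in all 3 lists. Of all genes, 3.08% were lower without overlap. Siglec5, a sialic acid receptor of myeloid cells, was at 3.93, 5.67, 7.55 and 3.96 CPM and 0.968, 1.82, 1.54 and 2.27 CPM (-1.67 ± 0.32, adjusted p = 0.0821). Interferon-stimulated genes had no common direction. Of 28, 15 were higher and 13 lower, and the mean difference was -0.70, -0.28 and 0.31 in paclitaxel 1 to 3 and 0.19 in paclitaxel 4, where vehicle libraries spanned -0.10 to 0.12.

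Matrix and glial genes were lower with less agreement among libraries. Collagen genes were lower in 33 of 43 (median -0.26), 4 without overlap, where 3.08% of all genes were. Col3a1, a fibrillar collagen, was at 1095, 935, 1186 and 844 CPM and 765, 740.0, 657 and 819 CPM (-0.45 ± 0.12, adjusted p = 0.203). Sfrp4, a secreted antagonist of Wnt proteins, was at 19.6, 15.0, 36.4 and 28.1 CPM and 6.11, 9.09, 8.997 and 9.58 CPM (-1.55 ± 0.28, adjusted p = 0.0671). Of 12 markers of satellite glia 11 were lower (median -0.25), but 1 gene only, the higher Aldoc, was without overlap. Ednrb, the endothelin B receptor of these cells, was at 105, 92.5, 96.0 and 85.4 CPM in vehicle, 60.3, 63.1 and 65.6 CPM in paclitaxel 1 to 3 and 103 CPM in paclitaxel 4 (-0.37 ± 0.15, adjusted p = 0.257). Schwann cell and myelin markers were lower in 12 of 15 with a median of -0.07, and their vehicle libraries alone spanned -0.48 to 0.41.

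A last question is whether the called genes also set paclitaxel apart from the other drug. In edgeR's direct test between the drugs, in which 1788 genes (11.3%) were called, 18 of the 19 were called, in the direction they had against vehicle. Both comparisons use the same paclitaxel libraries, so the count is not independent support. Gal was at 7.51, 4.14, 8.64 and 6.07 CPM after oxaliplatin, below every paclitaxel library (2.28 ± 0.23 between the drugs, adjusted p = 0.000298, edgeR). Ptprh was at 0.520, 0.402, 0.226 and 0.506 CPM there (3.49 ± 0.34, adjusted p = 0.000266) and Stac2 at 1.15, 1.09, 0.565 and 0.618 CPM (2.58 ± 0.29, adjusted p = 0.000551). Gal, Ptprh and Stac2 were near vehicle level after oxaliplatin.

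Ecel1 and Fam150b lay between. Ecel1 was at 14.6, 6.55, 13.3 and 17.6 CPM after oxaliplatin, above all vehicle and below all paclitaxel libraries (1.33 ± 0.24 between the drugs, adjusted p = 0.00783, edgeR). Fam150b was at 10.7, 9.08, 6.33 and 18.5 CPM, and its highest oxaliplatin library exceeded paclitaxel 4 (1.23 ± 0.33, adjusted p = 0.0337). Among the genes that fell, Blnk was at 6.93, 5.74, 7.40 and 3.88 CPM (-1.78 ± 0.22, adjusted p = 0.000993) and Spi1 at 14.4, 13.9, 15.0 and 12.5 CPM (-1.01 ± 0.12, adjusted p = 0.000639). Adgre1 was the 1 gene not called between the drugs, at 7.91, 9.54, 14.4 and 8.60 CPM after oxaliplatin (-0.59 ± 0.22, adjusted p = 0.0981).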

How the data were processed

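RNA of rat dorsal root ganglia was sequenced, 4 libraries per group. For each library the authors deposited a gene table that holds the estimated count beside its FPKM, per the file headers. Reads were handled with CASAVA 1.4 and Bowtie2, per the submitters' processing notes, while the sources used here name no quantification tool or genome build. The deposited estimated counts were joined on gene ID, with 0 where a gene was not listed, and rounded. An estimate that is not whole in more than 6 of 12 libraries marks reads divided between genes, called shared reads in the text.

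edgeR 4.0.16 (R 4.3.3) was used with its default low-count filter, which set 4343 genes aside, TMM scaling and a robust quasi-likelihood fit over all 12 libraries (9 residual degrees of freedom). Adjusted p-values are Benjamini-Hochberg over 15809 genes, and all those in the text come from edgeR unless another tool is named. The code was tested on simulated data. Counting intervals and floors cover counting error only.

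Named genes are all called genes, the 5 largest folds in each direction without overlap and the 3 of smallest p in each list. Members of a list that a count of 5 or fewer singles out are named too. So are the next 10 by p in each direction without overlap, at a mean log2 CPM of at least 1. The last set is the 8 in each direction called only without paclitaxel 4, at a mean log2 CPM of at least 3. Both of these sets leave out genes with a placeholder symbol, such as those starting with LOC. Galr1, Galr2, Crhr1, Crhr2, Ltk, Igf1r, Odc1, Hk1, Adcyap1, Cck, Cpe and Npy were added after their values were seen. Some genes that this rule names, 1 called gene among them, are not reported here. Lists and genes were chosen with earlier results of these data known. Alternatives were DESeq2 1.42.0, limma 3.58.1 on weighted counts and on log2 FPKM with 1 or 0.1 added, other filters, scaling and libraries.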

Additional observations from a re-analysis of the deposited data

Results flagged for a closer look

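Each group of 4 libraries was examined for a highest or lowest library far from the other 3, for the genes named by rule and the list scores. Of 386 groups 36 held such a library. The limit used flags about 1 in 20 groups by chance in unselected data. The genes here were selected, many by small p or by groups without overlap, and lists share members. The total is therefore not to be read against that rate. Paclitaxel 4 was that library in 13 and paclitaxel 1 in 8. The genes examined include those named because they were called only without paclitaxel 4, so its tally follows in part from that choice and is not to be read against chance.

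Paclitaxel 4 was far above the other paclitaxel libraries for Ednrb at 103.0 CPM, Rpl7 at 352 CPM, and Prpf4b at 52.4 CPM, and far below them for Zfp180 at 198 CPM. Among genes chosen for being called only without it, paclitaxel 4 was far above the other 3 for Clk1 at 80.8 CPM, Rmi1 at 43.2 CPM, Dnaja1 at 481 CPM, Chordc1 at 67.3 CPM, Zfp638 at 81.3 CPM, Rbm12b at 13.0 CPM and Rarres2 at 80.3 CPM. Paclitaxel 4 was also apart for Cd2, a T cell marker, at 0.639 CPM, and for the mean difference of synaptic genes, at -0.05.

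Paclitaxel 1 was apart for Blnk at 1.21 CPM, Sfrp4 at 6.11 CPM, Itgam at 1.45 CPM, Lrp6 at 28.0 CPM, Cx3cr1 at 1.33 CPM and C1qa at 22.5 CPM. Its mean difference of macrophage genes was -1.4 and that of complement genes -0.62. Paclitaxel 2 was apart for Spi1 at 7.45 CPM.

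Vehicle 1 stood apart for Gal at 5.26 CPM, Ankrd1 at 0.636 CPM, Sdc1 at 7.8 CPM, Myo1f at 9.36 CPM and Stmn4 at 20 CPM. Vehicle 2 did for Aplp1 at 146 CPM, Sfrp2 at 2.92 CPM and the mean difference of potassium channels, -0.12. Vehicle 3 did for Vgf at 112 CPM, Itgb3 at 16.8 CPM and Rbm12b at 12.1 CPM. Vehicle 4 did for RT1-DOa at 1.26 CPM, Rarres2 at 66.0 CPM and the mean difference of p53 targets, -0.05.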

How the results depend on the processing

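Counts of called genes depended strongly on the tool and on the libraries used. Beside 13 higher and 6 lower genes in edgeR, DESeq2 called 120 and 118, and limma voom with a weight per library 1233 and 1038, all 19 genes among them in both. RLE scaling, either other filter and log2 FPKM gave 12 to 14 higher and 6 to 9 lower, Ucn not being tested at a minimum of 1 CPM in 4 libraries. With only the 8 vehicle and paclitaxel libraries, Spi1, Tifab and Tgm1 were lost, and on log2 FPKM Azin2 was. Leaving out 1 library at a time gave 10 to 921 genes higher and 0 to 710 lower, the highest of both without paclitaxel 4. Lower genes in edgeR numbered 0 without paclitaxel 1 or 3 (726 and 825 at an unadjusted p under 0.05; other tools were not run on these subsets), 1 without vehicle 1 or 3, and 2 without paclitaxel 2. Among the 19 called genes and 134 others named by rule, no direction was reversed in the alternatives run.

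Replicate numbers did not pair the samples: deviations of same-numbered vehicle and paclitaxel libraries correlated at 0.018, -0.079, 0.04 and -0.182. With the replicate number as a block (replicate block), 11 genes were called higher and 4 lower, 10 and 3 of them shared with the fit without it; Ankrd1, Igf1, Adgre1, Tgm1, Azin2 and Blnk were not called. Of 41 list medians, 14 moved by more than the spread between replicates on log2 FPKM with 1 added, and 6 without paclitaxel 4. Depth limits genes with few counts, such as Ucn.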
